A study of Mus musculus with 19 samples.

Results

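The interferon-induced transmembrane (Ifitm) family was followed across 19 single mouse embryos sequenced for polyA RNA. The members were taken by gene name from a deposited table of read counts: Ifitm1, Ifitm2, Ifitm3 and the annotated row Gm45717, which are 4 of its 53379 gene rows. They were chosen by measured values: the low Ifitm2 level in Gabpb1 KO morulae selected the family, and Gm45717 was added because it overlaps Ifitm2. All values from Gabpb1 cross morulae are therefore given as a description, with no test.

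Embryos came from in vitro fertilisation and were collected at 96 h after insemination, all on a B6D2F1 background. Crosses between Alyref+/- parents gave 2 Alyref KO morulae (Alyref-/-) and 6 non-KO embryos, of which 3 were morulae and 3 blastocysts. Crosses between Gabpb1+/- parents gave 3 Gabpb1 KO morulae (Gabpb1-/-) and 5 non-KO embryos, of which 2 were morulae and 3 blastocysts. The non-KO embryos are wild type or heterozygous and are not told apart in the labels. A further 3 blastocysts came from wild-type (WT) parents. No blastocyst is labelled KO and no WT morula is among the samples, so KO and stage are compared within a cross. The submitters called KO embryos from missing reads over the deleted region in these same libraries. Nothing in the labels says whether embryos of a group came from separate litters or fertilisations, so p-values measure the spread between these embryos.

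IFITM proteins are small membrane proteins with a CD225 domain. They sit at the cell surface and in endosomes and hinder the fusion of enveloped viruses with the cell. Interferon raises their genes in most tissues, and stem and germ cells are known to express some of them without it. Ifitm3, also called fragilis, and Ifitm1 are long-used markers of primordial germ cells. ALYREF is an adaptor that hands processed mRNA to the nuclear export machinery. GABPB1 is the beta subunit of GABP, an ETS-family transcription factor.

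The 4 rows lie close together on chromosome 7 (GRCm38), with a processed pseudogene row, Gm7514, between Ifitm1 and Ifitm3. Ifitm2 (ENSMUSG00000060591.9) runs on the minus strand from 140954837 to 140955987. Gm45717 (ENSMUSG00000110104.1) spans 140949222 to 140955937 on the same strand. Ifitm1 (ENSMUSG00000025491.14) lies on the plus strand from 140967221 to 140969825, and Ifitm3 (ENSMUSG00000025492.6) on the minus strand from 141009586 to 141010770. The coding sequences of the 3 named genes are 80.8% to 81.9% identical in pairwise alignments. The first coding exons of Ifitm2 and Ifitm3 show how close the paralogs are, which bears on how reads can be assigned. Both are printed 5′ to 3′ on the coding strand, with the bases in capitals where a stretch of 25 bases is also found in another member that does not overlap it.

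Ifitm2, chr7:140955670-140955915: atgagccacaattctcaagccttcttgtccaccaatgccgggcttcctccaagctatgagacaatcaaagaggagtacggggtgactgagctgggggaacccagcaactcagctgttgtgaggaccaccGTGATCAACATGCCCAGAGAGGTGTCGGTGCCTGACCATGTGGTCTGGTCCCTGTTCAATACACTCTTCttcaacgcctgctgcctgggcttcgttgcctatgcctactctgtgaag
Ifitm3, chr7:141010397-141010645: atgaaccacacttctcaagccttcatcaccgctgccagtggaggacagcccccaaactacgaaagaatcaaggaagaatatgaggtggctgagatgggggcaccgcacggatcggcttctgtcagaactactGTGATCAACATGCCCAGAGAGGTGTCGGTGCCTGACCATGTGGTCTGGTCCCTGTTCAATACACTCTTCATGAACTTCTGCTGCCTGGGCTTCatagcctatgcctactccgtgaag

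The capitals cover 69 of 246 bases in Ifitm2 and 93 of 249 in Ifitm3. Over whole transcripts, 22.8% of the 50-base stretches of Ifitm2 recur in genes outside Gm45717 and Ifitm5, mostly in processed pseudogenes. The share was 10.02% for Ifitm3 and 5.02% for Ifitm1. Assignment of reads in these stretches is uncertain. The pseudogene rows that share them with Ifitm2 held few counts beside its 9539: Gm11951 had 5 to 100 counts per embryo, Gm8865 1 to 75 and Gm45308 0 to 39. Gm11951 also shares stretches with Ifitm3, and its 801 counts over all embryos exceed the 765 of Ifitm3.

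The promoters were read for 3 motifs on both strands, from 250 bases before to 50 bases after the RefSeq transcript start (GRCm38.p6). The interferon-stimulated response element, searched as GAAANNGAA, was found in 8.56% of 32851 promoters. Ifitm2 holds 1 match, 46 bases before its start, and Ifitm3 holds 2 matches, 2 and 19 bases after its start, while Ifitm1 holds 0 in this window. The Ifitm2 match and the first Ifitm3 match are printed with the motif in capitals, on each gene's own strand, because their letters are the same.

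Ifitm2, chr7:140955988-140956017: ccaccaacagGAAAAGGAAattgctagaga
Ifitm3, chr7:141010723-141010752: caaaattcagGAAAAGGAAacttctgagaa

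The interferon-gamma activated site, TTCNNNGAA, occurs in 8.30% of promoters and has 1 match in Ifitm3, which overlaps only the second of its response-element matches. The GABP core, CCGGAAG, occurs in 8.86% of promoters and has 0 matches in the windows of Ifitm1, Ifitm2 and Ifitm3. The latter count says only that these letters are not in these windows.

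Gene counts per embryo ran from 7486125 to 31536282, and levels are CPM, counts scaled to library size with edgeR's TMM factors. Reads per length (FPKM) are used only to compare genes with one another. Summed Alyref reads were 46.1 to 56.9 CPM in the Alyref KO morulae and 162 to 309 CPM in all other embryos. Gabpb1 reads were 73.8 to 249.7 CPM in the Gabpb1 KO morulae and 39.0 to 104 CPM in the other embryos. A count over the whole gene includes exons outside the deletion, so neither value tests the label.

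Gm45717 has 2 exons, and both lie inside exons of other genes on the same strand. Its 268-base exon (140955670 to 140955937) falls wholly within the first exon of Ifitm2, and its 227-base exon falls within an exon of Ifitm5, a bone-expressed relative. Ifitm5 held 4 counts over all 19 embryos. Gm45717 received 6125 counts against 9539 for Ifitm2, which is 64.2 per 100 Ifitm2 counts. In the 16 embryos with at least 50 Ifitm2 counts the figure stayed between 56.3 and 67.2. In the Gabpb1 KO morulae it was 15 of 23, 2 of 3 and 5 of 5 counts. In no embryo did Gm45717 exceed Ifitm2. How the counting treated a read that falls in exons of several genes is not given in the sources used here. Such reads were not all discarded, since Gm45717 holds counts and lies wholly within exons of other genes. The Gm45717 row has no exon base of its own and is not an independent measurement from Ifitm2, so in the counts of family rows below its calls repeat those of Ifitm2.

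**Figure D1:**
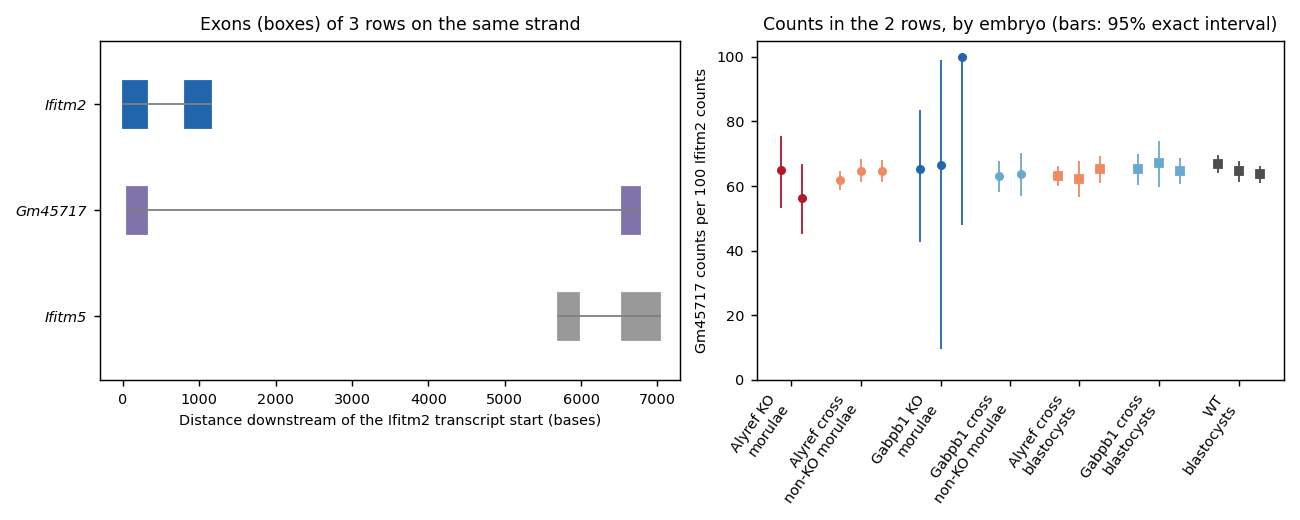
Left, exons (boxes) of Ifitm2, Gm45717 and Ifitm5 by distance in bases downstream of the Ifitm2 transcript start. Right, Gm45717 counts per 100 Ifitm2 counts in each embryo with 95% exact (Clopper-Pearson) intervals, which cover counting error only. The intervals treat the Gm45717 counts as a part of the Ifitm2 counts. Points lie between 56.3 and 67.2 except in 1 Gabpb1 KO morula, at 100 (5 of 5 counts).

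Ifitm2 was the main family member in these embryos. It took 70.8% to 98.5% of the summed FPKM of Ifitm1, Ifitm2 and Ifitm3 in all 16 embryos outside the Gabpb1 KO group. Its level was 53.2 to 88.6 CPM in WT blastocysts, where it was highest, and 0.267 to 1.87 CPM in Gabpb1 KO morulae, where it was lowest. The mean was highest in WT blastocysts, at 71.8 ± 17.8 CPM (SD, n = 3). Next came the non-KO morulae of the Alyref cross with 55.2 ± 3.49 CPM (n = 3) and the blastocysts of the Alyref and Gabpb1 crosses with 34.8 ± 15.5 and 32.5 ± 10.6 CPM (n = 3 each). The non-KO morulae of the Gabpb1 cross had 23.1 ± 9.68 CPM (n = 2). Alyref KO morulae followed with 7.73 ± 2.95 CPM (n = 2) and Gabpb1 KO morulae with 0.824 ± 0.904 CPM (n = 3). Neighbours in this order overlapped in their embryos except at 3 steps. These were between Alyref cross non-KO morulae and Alyref cross blastocysts, between Gabpb1 cross non-KO and Alyref KO morulae, and between Alyref KO and Gabpb1 KO morulae.

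Ifitm3 was low throughout, at 0 to 9.02 CPM. Mean levels were 5.13 ± 3.47 CPM in WT blastocysts (SD, n = 3), 4.23 ± 0.751 in Gabpb1 cross blastocysts (n = 3) and 2.24 ± 1.70 in Alyref cross blastocysts (n = 3). In morulae they were 2.97 ± 2.16 in Gabpb1 cross non-KO (n = 2), 2.38 ± 0.805 in Alyref cross non-KO (n = 3), 1.60 ± 1.43 in Gabpb1 KO (n = 3) and 0.932 ± 0.124 in Alyref KO (n = 2). Each group overlapped the next in the order of means. Ifitm1 was lower still, at 0 to 4.32 CPM, and 10 of the 19 embryos held 3 counts or fewer. Its highest mean, 2.08 ± 2.06 CPM (SD, n = 3), was in the non-KO morulae of the Alyref cross, and its lowest was 0.0360 ± 0.0510 CPM (n = 2) in Gabpb1 cross non-KO morulae.

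**Figure D2:**
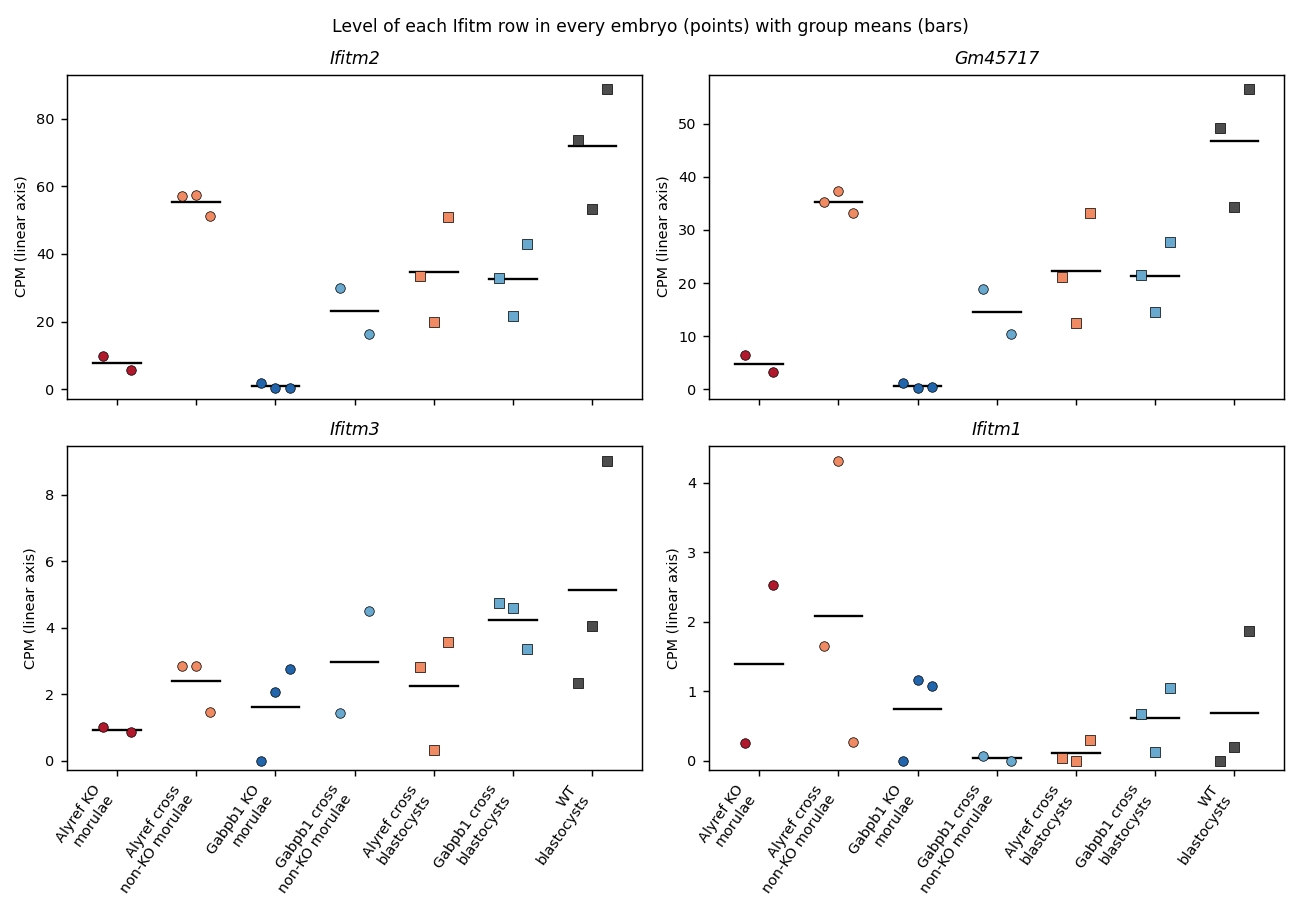
CPM of each row (vertical, linear axes that differ between panels) in every embryo, by group; points are embryos and bars are group means, with circles for morulae and squares for blastocysts. Ifitm2 and Gm45717 repeat one pattern with both KO groups lowest, while Ifitm3 stays at or under 9.02 CPM and Ifitm1 at or under 4.32 CPM.

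**Figure D3:**
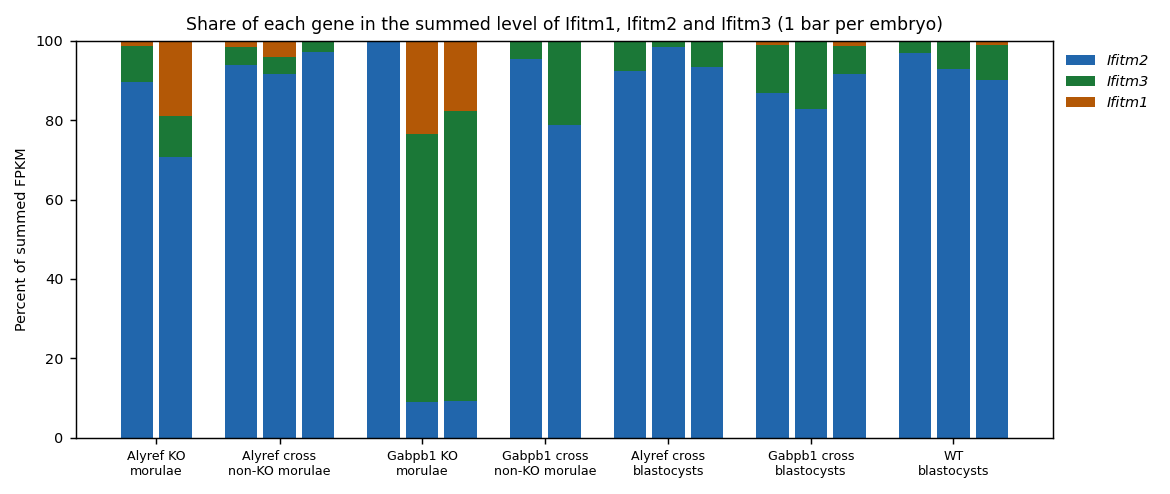
Percent of the summed FPKM of Ifitm1, Ifitm2 and Ifitm3 (vertical) taken by each gene, 1 bar per embryo. Ifitm2 takes at least 70.8% outside the Gabpb1 KO morulae and 9.09% and 9.23% in 2 of those 3.

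Correlations between the members across embryos were uneven. The correlation of log2(CPM + 1) over the 19 embryos was 0.46 between Ifitm2 and Ifitm3, 0.23 between Ifitm1 and Ifitm3 and -0.01 between Ifitm1 and Ifitm2. It was 0.998 between Ifitm2 and Gm45717, which share exon bases. These coefficients describe embryos from 7 groups that differ in genotype, stage and depth, and include the Gabpb1 KO morulae that led to the choice of the family. Ifitm1 held 3 counts or fewer in 10 of the 19 embryos, so its low coefficients do not show that it varies apart from the others.

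In Alyref KO morulae Ifitm2 was lower than in the non-KO morulae of the same cross in every embryo, but the difference missed the threshold. The KO morulae had 9.81 and 5.65 CPM (77 and 87 counts), and the non-KO morulae had 57.0, 57.5 and 51.2 CPM. The groups did not overlap: the higher KO embryo lay far under the lowest non-KO embryo. The log2 fold change was -2.85 (SE 0.61), a 7.20-fold lower level. The adjusted p was 0.0790 in edgeR's quasi-likelihood (QL) test, with Benjamini-Hochberg (BH) adjustment over 19738 genes. Of all genes tested, 486 (2.46%) had a lower log2 fold change. The same difference was called by DESeq2 (adjusted p = 4.71e-05) and by limma (adjusted p = 0.00769), and the adjusted p ranged from 4.71e-05 to 1 over the alternatives. These methods called more genes of any kind in this comparison: 478 with DESeq2 and 166 with limma, against 29 with edgeR.

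Ifitm3 was also lower in every Alyref KO embryo. Its values were 1.02 and 0.844 CPM in the KO and 2.83, 2.85 and 1.45 CPM in the non-KO morulae. The groups did not overlap, yet the log2 fold change of -1.35 (SE 1.13) had an adjusted p of 0.694 in edgeR's QL test. The share of all genes whose groups do not overlap was not counted, here or in the other comparisons. Non-overlap alone is therefore not a result about these genes. Ifitm1 was 0.255 and 2.53 CPM in the KO against 1.66, 4.32 and 0.263 CPM in the non-KO morulae. These ranges overlapped, and its log2 fold change was -0.53 (SE 1.58; edgeR QL adjusted p = 0.937). Without Alyref KO replicate 1 this estimate was 0.29. Without non-KO replicate 2 it was 0.57.

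The test called 0 of the 4 rows in this comparison at an adjusted p under 0.05, against 29 of 19738 genes or 0.147% (edgeR QL, BH; 8 higher in the KO, 0.0405%, and 21 lower, 0.106%). At an unadjusted p under 0.05 it passed 2 of the 4 rows, Ifitm2 and Gm45717, and 2371 of all genes. DESeq2 and limma each called the same pair, among 478 and 166 genes called. Gm45717, counted from reads in shared exons, had a log2 fold change of -2.90 (SE 0.59, edgeR QL adjusted p = 0.0669). Without non-KO replicate 3, which raised the number of genes called from 29 to 122, the adjusted p was 0.0557 for Ifitm2 and 0.0463 for Gm45717. Trophectoderm markers overlapped between these groups: their summed level was 1387 to 2391 CPM in KO and 1277 to 2755 CPM in non-KO morulae, over 14 of 14 markers that passed the filter on low counts. Epiblast markers leaned lower in the KO: 10 of the 12 that passed the filter, of 12, had a negative log2 fold change, with a median of -0.65 against -0.06 for all genes. Of the 12, 1 fell (0.106% of all genes did; 4 of the 12 passed an unadjusted p under 0.05). It was Gdf3, a TGF-beta family ligand, at 5.14 ± 0.661 CPM in KO (SD, n = 2) and 67.2 ± 41.4 CPM in non-KO morulae (n = 3; log2 fold change -3.71, SE 0.66, edgeR QL adjusted p = 0.0437). The call was lost with ERCC scaling, with the compared groups only, and without either KO embryo or non-KO replicate 1. Summed epiblast levels overlapped, at 940 to 970 CPM in KO and 945 to 1320 CPM in non-KO morulae. The part of these markers in the Ifitm2 values was not tested.

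Between stages, Ifitm2 was lower in Alyref cross blastocysts than in non-KO morulae of the cross, without passing the test. Both were collected at 96 h, so the morulae are of the same age as the blastocysts and not an earlier time. Stage cannot be told apart here from slower development. Words such as rose and fell between stages mean higher or lower in blastocysts. The blastocysts had 33.6, 20.0 and 50.9 CPM against 57.0, 57.5 and 51.2 CPM in the morulae. The groups did not overlap, although the highest blastocyst lay just under the lowest morula. The log2 fold change was -0.67 (SE 0.48; edgeR QL adjusted p = 0.364). In this comparison 2191 of 19738 genes were called (11.1%; edgeR QL, BH; 5.63% higher in blastocysts and 5.47% lower) and 0 of the 4 family rows.

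Ifitm1 had the widest difference between these stages. The morulae held 31, 53 and 4 counts (1.66, 4.32 and 0.263 CPM) and the blastocysts 1, 0 and 3 counts (0.0336, 0 and 0.298 CPM). The ranges overlapped through the third morula. The summed counts gave a level 26.5 times higher in morulae (95% interval 9.98 to 99.3, counting error only, without the spread between embryos). The log2 fold change was -4.42 (SE 1.74; edgeR QL adjusted p = 0.104). Of the 4 rows 1, Ifitm1, passed an unadjusted p under 0.05, as did 5944 of the 19738 genes. DESeq2 gave an adjusted p of 0.0422, in a fit that called 3820 genes. Without morula replicate 3 the edgeR value was 0.0494, and over all alternatives the adjusted p ran from 0.0422 to 0.306. The fits without 1 embryo called 313 to 4688 genes in this comparison. The estimate ran from -6.20 without blastocyst replicate 3 to -3.38 without morula replicate 2, and was -1.25 in limma on log2(CPM + 1), a scale that understates changes of low genes.

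Ifitm3 was called neither higher nor lower between the stages, with 2.82, 0.319 and 3.57 CPM in blastocysts and 2.83, 2.85 and 1.45 CPM in morulae. The ranges overlapped, and the log2 fold change was -0.09 (SE 0.93; edgeR QL adjusted p = 0.958; 95% interval -1.91 to 1.72). Without morula replicate 2 it was 0.0069, and without blastocyst replicate 2 it was 0.37. The summed level of the cumulus-cell markers was 20.9 to 33.2 CPM in these morulae and 3.96 to 9.82 CPM in the blastocysts. Of the 12 cumulus markers 2 passed the filter, and the follicle-stimulating hormone receptor Fshr was at 0 in all embryos. Both that passed fell, against 5.47% of all genes. Hsd17b1, an estradiol-forming enzyme, stood at -2.76 (SE 0.63, edgeR QL adjusted p = 0.0169). Amhr2, the anti-Mullerian hormone receptor, stood at -1.77 (SE 0.55, edgeR QL adjusted p = 0.0497). Hsd17b1 and Amhr2 held 1887 and 2362 counts over all embryos, and every other cumulus marker at most 36 (Foxl2). The summed level is therefore nearly that of these 2 genes alone.

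Embryo lineage markers differed between these stages as well. Trophectoderm markers summed to 6192 to 9466 CPM in the blastocysts against 1277 to 2755 CPM in the morulae. Of the 14, 6 rose, against 5.63% of all genes. These were the keratins Krt7 (log2 fold change 4.64), Krt18 (2.85) and Krt8 (2.37), the sodium pump subunit Atp1b1 (2.30), the growth factor receptor Fgfr2 (1.78) and the transcription factor Cdx2 (1.46). Of the 12 epiblast markers 2 fell, against 5.47% of all genes: the transcription factors Nanog (-1.88) and Klf2 (-1.81). Of the 12 primitive endoderm markers 1 rose, against 5.63% of all genes: the laminin chain Lama1 (4.34). The edgeR QL adjusted p ranged from 0.00449 (Nanog) to 0.0498 (Cdx2) over these 9 genes. With ERCC scaling 1 trophectoderm marker was called and 0 of the epiblast, primitive endoderm and cumulus markers. With 1 embryo left out the trophectoderm count was 10 without morula replicate 3, 3 without blastocyst replicate 3 and 1 in the other 4 fits. The epiblast count was then 1 to 2, the primitive endoderm count 2 without morula replicate 3 and 0 otherwise, and the cumulus count 0 to 2, with 0 without blastocyst replicate 1 or 2. The part of these marker lists in the Ifitm1 and Ifitm2 values was not tested.

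Blastocysts of both heterozygous crosses had less Ifitm2 than WT blastocysts in every embryo. The WT blastocysts had 73.6, 53.2 and 88.6 CPM, the Alyref cross 33.6, 20.0 and 50.9 CPM, and the Gabpb1 cross 33.0, 21.8 and 42.9 CPM. Each cross lay wholly under the WT range, with the highest Alyref cross blastocyst close to the lowest WT one. The log2 fold change was -1.05 (SE 0.48) for the Alyref cross (edgeR QL adjusted p = 1) and -1.14 (SE 0.48) for the Gabpb1 cross (edgeR QL adjusted p = 0.804). Both comparisons use the same 3 WT blastocysts and are not independent.

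Neither comparison with WT called a family row or any other gene in edgeR's QL test, so 0% of the 19738 genes were called in each. At an unadjusted p under 0.05 there were 587 genes for the Alyref cross and 1194 for the Gabpb1 cross, and in each case Ifitm2 and Gm45717 were among them. DESeq2 called 15 and 41 genes, and limma 5 and 4. Ifitm3 in WT blastocysts was 2.34, 4.03 and 9.02 CPM, which overlapped both crosses (log2 fold change -1.20, SE 0.93, and -0.28, SE 0.91). Without WT replicate 3 the Ifitm3 estimate for the Alyref cross was -0.52. The Ifitm3 estimate for the Gabpb1 cross was 0.41 without WT replicate 3. Ifitm1 in WT blastocysts was 0, 0.195 and 1.87 CPM, and it overlapped both crosses as well (log2 fold change -2.84, SE 1.71, and -0.12, SE 1.47). Without WT replicate 3, which supplies 27 of the 30 WT counts, the Ifitm1 estimate was -0.14 for the Alyref cross and 2.58 for the Gabpb1 cross. Primitive endoderm markers stood apart in the same embryos. Their summed level was 581 to 757 CPM in WT blastocysts, 249 to 338 CPM in the Alyref cross and 185 to 371 CPM in the Gabpb1 cross. Their part in the Ifitm2 difference was not tested.

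**Figure D4:**
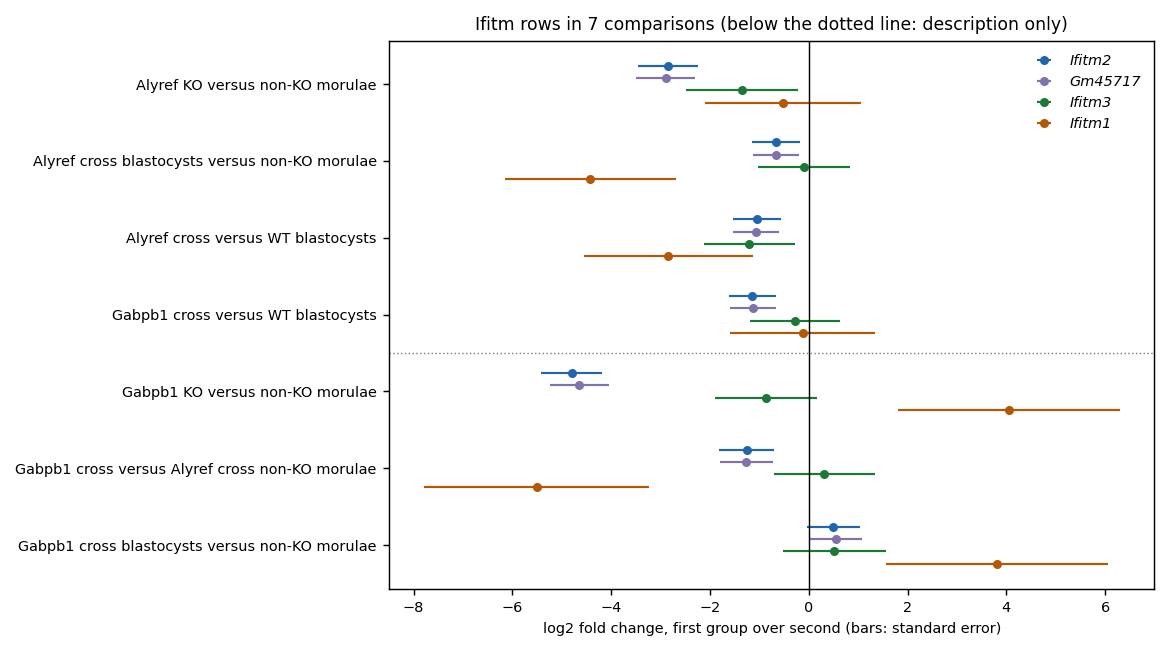
Log2 fold change of each row (horizontal, first group over second; bars are standard errors) in 7 comparisons, with those that rest on Gabpb1 cross morulae under the dotted line as a description. Ifitm2 and Gm45717 sit at -2.85 and -2.90 in Alyref KO and at -4.80 and -4.64 in Gabpb1 KO morulae.

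In Gabpb1 KO morulae, the values that led to the choice of the family, Ifitm2 was almost undetected. The KO morulae had 1.87, 0.267 and 0.337 CPM (23, 3 and 5 counts), against 29.9 and 16.2 CPM (415 and 213 counts) in the non-KO morulae of the cross. The ranges were far apart. The log2 fold change was -4.80 (SE 0.62), and 140 of 19738 genes (0.709%) had a lower one. Leaving out KO replicate 1, the embryo with 23 counts, gave -6.14. Gm45717 had a log2 fold change of -4.64 (SE 0.60). In this comparison 2.02% of genes were called (398; edgeR QL, BH; 0.279% higher in the KO and 1.74% lower).

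Ifitm3 and Ifitm1 were not set apart in the same way. Ifitm3 was 0, 2.05 and 2.76 CPM in the KO and 1.44 and 4.49 CPM in the non-KO morulae, which overlap (log2 fold change -0.88, SE 1.03). Ifitm1 was 0, 1.16 and 1.08 CPM in the KO (0, 13 and 16 counts) and 0.0721 and 0 CPM in the non-KO morulae (1 and 0 counts). These ranges overlap at 0, and the log2 fold change was 4.05 (SE 2.24). KO replicate 1 held 0 counts of both genes. In KO replicates 2 and 3, Ifitm2 made up 9.09% and 9.23% of the family's summed FPKM, and Ifitm3 67.3% and 73.1%. Trophectoderm markers were lower in the KO morulae as well, at 489 to 3263 CPM summed against 3763 to 5628 CPM in the non-KO morulae. Their part in these values was not tested.

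The non-KO morulae of the crosses did not have the same Ifitm2 values. Ifitm2 was 29.9 and 16.2 CPM in the Gabpb1 cross and 51.2 to 57.5 CPM in the Alyref cross (log2 fold change -1.26, SE 0.56), ranges that do not overlap. In that comparison 1.43% of genes were called (0.958% higher in the Gabpb1 cross and 0.476% lower). Ifitm1 was 0.0721 and 0 CPM against 0.263 to 4.32 CPM, and Ifitm3 overlapped. From Gabpb1 cross non-KO morulae to blastocysts, Ifitm2 had a log2 fold change of 0.50 (SE 0.54), and 0% of genes were called. With libraries scaled to the ERCC spike-in RNA in place of the gene counts, that value was -0.45. The same rescaling moved the median of all genes from 0.03 to -0.88, so relative to the median Ifitm2 stood above it on both scales.

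The neighbours on chromosome 7 held no call in Alyref KO morulae. Of 20 other genes within 100 kb of Ifitm1, Ifitm2 or Ifitm3, 12 passed the filter on low counts, and their median log2 fold change was -0.08 against -0.06 for all genes. The edgeR QL test called 0 of the 12. Psmd13, a subunit of the proteasome lid, had 143 ± 27.7 CPM in KO (SD, n = 2) and 172 ± 18.6 CPM in non-KO morulae (n = 3; log2 fold change -0.27, SE 0.19, edgeR QL adjusted p = 0.636). Ric8a, a chaperone of G-protein alpha subunits, had 25.1 ± 14.4 and 28.04 ± 11.6 CPM (log2 fold change -0.16, SE 0.46, edgeR QL adjusted p = 0.933). Gm15542, a processed pseudogene inside Psmd13, was the most abundant row of the region. It was the only one of the 12 called between Alyref cross stages, against 11.1% of all genes (log2 fold change -1.84, SE 0.35, edgeR QL adjusted p = 0.00927). In Gabpb1 KO morulae, as a description, Psmd13 stood at -0.55 (SE 0.19), Ric8a at -1.07 (SE 0.45) and Gm15542 at 1.18 (SE 0.39).

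Interferon-induced genes were mostly weak in these embryos. Of 40 on the list, 22 passed the filter, and Ifit1, Ifit2, Ifit3, Ifit3b and Ifi44 had no count in any embryo. In Alyref KO morulae the edgeR QL test called 0 of the 22 (3 at an unadjusted p under 0.05, 1 in DESeq2, 0 in limma). Of all 19738 genes, 2371 passed that unadjusted p, 478 were called by DESeq2 and 166 by limma. Their median log2 fold change was -0.75 against -0.06 for all genes, with 15 lower and 7 higher. The most abundant were Trim25, a ubiquitin ligase of RNA sensing, with a log2 fold change of -0.53 (SE 0.40), Bst2, the virus tether tetherin, with 0.02 (SE 0.66), and Zc3hav1, the zinc-finger antiviral protein, with -2.09 (SE 0.81). Between the Alyref cross stages 1 of the 22 fell, against 5.47% of all genes: Ifi35 went from 11.1 ± 6.88 CPM in morulae (SD, n = 3) to 3.14 ± 0.761 CPM in blastocysts (n = 3; log2 fold change -1.83, SE 0.54, edgeR QL adjusted p = 0.0425). The call was lost with ERCC scaling, without morula replicate 1 and without any 1 of the 3 blastocysts.

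Receptors and signalling genes of the interferon pathway were present. Of 22, 20 passed the filter. In Alyref KO morulae 0 were called by edgeR's QL test (3 at an unadjusted p under 0.05, 1 in DESeq2, 0 in limma; 1 without non-KO replicate 3), with a median log2 fold change of 0.55 and 16 of 20 higher. Of all 19738 genes, 2371 passed the unadjusted p in the KO comparison and DESeq2 called 478. The fit without non-KO replicate 3 called 122. Between stages 1 of the 20 rose and 1 fell, against 5.63% and 5.47% of all genes. Ifnar2, a chain of the type I interferon receptor, rose from 2.10 ± 2.12 to 11.2 ± 4.80 CPM (SD, n = 3 each; log2 fold change 2.41, SE 0.65, edgeR QL adjusted p = 0.0299). Ptpn2, a phosphatase that acts on JAK kinases, fell from 337 ± 162 to 112 ± 3.81 CPM (log2 fold change -1.59, SE 0.39, edgeR QL adjusted p = 0.0217). Jak1, a kinase of the receptors, was 51.3 ± 22.8 CPM in morulae and 104.8 ± 5.57 CPM in blastocysts and missed the threshold (edgeR QL adjusted p = 0.0590). Without any 1 of the 3 blastocysts the list had 0 calls. Without morula replicate 1 and with ERCC scaling 1 gene, lower in blastocysts, was called in each case, and without morula replicate 2 1 higher gene.

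Among 9 genes that modify or bind IFITM proteins, 9 passed the filter and 0 were called in Alyref KO morulae (edgeR QL; 1 at an unadjusted p under 0.05, 0 in DESeq2 and in limma), with a median log2 fold change of -0.03. The abundant ones were Cd9, a tetraspanin, with a log2 fold change of -0.14 (SE 0.27), Zmpste24, a membrane protease, with 0.09 (SE 0.41), and Vapa, a protein of endoplasmic reticulum contacts, with -0.03 (SE 0.24). In the KO comparison 2371 of all 19738 genes passed the unadjusted p. Between stages 1 of the 9 rose and 1 fell, against 5.63% and 5.47% of all genes. Nedd4, a ubiquitin ligase that acts on IFITM3, rose from 33.3 ± 29.2 to 119.9 ± 16.4 CPM (SD, n = 3 each; log2 fold change 1.85, SE 0.49, edgeR QL adjusted p = 0.0280). Zmpste24 fell from 791 ± 437 to 308 ± 75.7 CPM, though its groups overlapped (log2 fold change -1.36, SE 0.37, edgeR QL adjusted p = 0.0314). This list had 0 calls with ERCC scaling and without any 1 of the 6 embryos other than morula replicate 3. Of 10 further genes with a CD225 domain only Ifitm10 passed the filter, with 0.416 to 8.28 CPM and no call.

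Of the germ-cell genes the most abundant was Dppa3, which protects maternal methylation. Of 10, 10 passed the filter, and 0 were called in Alyref KO morulae (edgeR QL; 1 at an unadjusted p under 0.05, 0 in DESeq2 and in limma), with a median of -0.80 and 9 of 10 lower. In the KO comparison 2371 of all 19738 genes passed the unadjusted p. Between stages 3 of the 10 fell, against 5.47% of all genes. Dppa3 went from 3918 ± 708 to 1789 ± 385 CPM (SD, n = 3 each; log2 fold change -1.13, SE 0.27, edgeR QL adjusted p = 0.0199), Tfap2c, an AP-2 transcription factor, stood at -1.11 (SE 0.28, edgeR QL adjusted p = 0.0233), and Ddx4, the germ-cell helicase Vasa, at -3.55 (SE 1.09, edgeR QL adjusted p = 0.0470). With ERCC scaling, and without morula replicate 1 or 2 or blastocyst replicate 1 or 2, 0 of the 10 were called, and without blastocyst replicate 3 1 was.

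**Figure D5:**
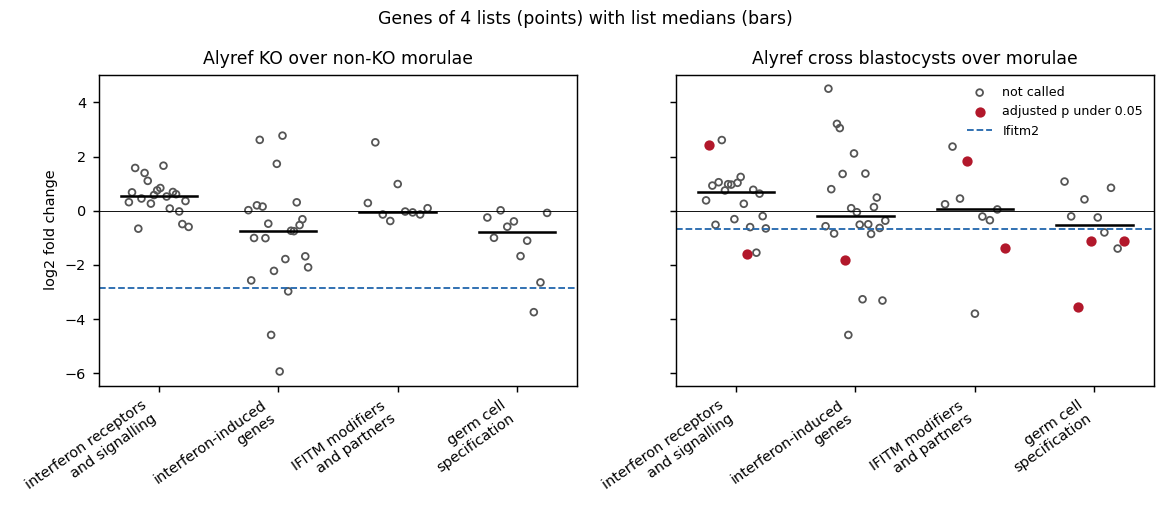
Log2 fold change (vertical) of the genes of 4 lists that passed the filter, in Alyref KO over non-KO morulae (left) and Alyref cross blastocysts over non-KO morulae (right); filled points have an edgeR QL adjusted p under 0.05, bars are list medians and the dashed line is Ifitm2. No listed gene is filled on the left, where the median of the interferon-induced genes is -0.75 and Ifitm2 is at -2.85.

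The rows most like Ifitm2 across the 19 embryos, by the Pearson correlation of log2(CPM + 1) among 11515 genes with a mean CPM of at least 5, were Nubp1 (0.91), Gm9755 (0.90), Tufm (0.89), Tvp23a (0.89) and Spcs3 (0.89). Their levels spanned a narrower range than that of Ifitm2. Gm9755, a processed pseudogene, had group means in the same order as those of Tufm. Shared reads between Gm9755 and Tufm were not checked, so they need not be separate signals. Nubp1 averaged 16.3 CPM in Gabpb1 KO, 37.6 in Alyref KO and 58.3 to 59.2 CPM in the non-KO morulae. For Ifitm1 the most alike were Rnaseh1 (0.87), Trmt10c (0.85), Apobec3 (0.82), Pramef17 (0.81) and Eif1 (0.81). For Ifitm3 they were Camkmt (0.80), AC116589.8 (0.75), AC192333.3 (0.74), AC163660.3 (0.73) and Rbmxl2 (0.70). All points share libraries, genotype groups and depth, they include the Gabpb1 KO morulae that led to the choice of the family, and no test was made.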

How the data were processed

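PolyA RNA of 19 single embryos was amplified and sequenced. The deposited table is named for FPKM but holds raw counts: whole numbers whose totals differ between embryos. The submitters' processing notes name Trimmomatic, Trim Galore, cutadapt, STAR, featureCounts and mm10, without versions or settings. The table has 53379 gene rows and 92 ERCC rows, and 50604 gene rows match GENCODE M21 (GRCm38) by identifier, start and end. The submitters made the counts, and CPM and FPKM were computed from them here with TMM-scaled library sizes. FPKM uses the deposited exon length.

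Genes with a CPM of at least 1 in at least 2 embryos were kept (19738). edgeR 4.0.16 (R 4.3.3) fitted 7 group means to all 19 embryos. Its quasi-likelihood F test was adjusted by Benjamini-Hochberg within each comparison, and a gene was called under 0.05. Standard errors come from the F statistic, and 95% intervals of log2 fold changes from the standard error. On simulated data of 18963 genes for Alyref KO against non-KO morulae, the method recovered 49% of genes changed by 2 and 66% of those changed by 3 on the log2 scale, with 7 wrong calls.

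Members and gene lists were chosen with earlier results of these data known. The text names the members, and of each list and of genes within 100 kb those called in a tested comparison plus up to 3 with the highest mean CPM. It also names the 5 rows most like each member, without rows that overlap it. Alternatives were DESeq2 1.42.0, its size factors, limma 3.58.1 on log2(CPM + 1), ERCC scaling, no filter, a replicate block, the compared groups only, the sum of Ifitm2 and Gm45717, and leaving out each embryo. Promoter sequences are from RefSeq (GRCm38.p6) and exon sequences from GRCm38.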

Additional observations from a re-analysis of the deposited data

How the results depend on the processing

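The lower Ifitm2 level in Alyref KO morulae kept its direction under all 13 alternatives, with log2 fold changes from -3.28 to -2.52 when an embryo was left out. It passed the threshold with DESeq2 (-2.82, adjusted p = 4.71e-05) and limma (-2.73, adjusted p = 0.00769). Over the 5 fits without an embryo its adjusted p was 0.0557 to 0.444. In place of 29 genes, this comparison called 0 with ERCC scaling, 13 without the filter, 478 with DESeq2, 166 with limma, 5 with the replicate block, 0 with the compared groups only, and 0 to 122 without an embryo, the highest without non-KO replicate 3. Between Alyref cross stages, in place of 2191, it was 248 with ERCC scaling, 3820 with DESeq2, 22 with the compared groups only and 313 to 4688 without an embryo. Against WT blastocysts, in place of 0, DESeq2 called 15 (Alyref cross) and 41 (Gabpb1 cross), limma 5 and 4, and the fit without the filter called 1 for the Gabpb1 cross. The causes were not tested. In the described comparisons, Ifitm2 in Gabpb1 KO morulae was -3.77 with limma, whose pseudocount shrinks low values, and -6.14 to -4.25 without an embryo. Between the crosses' non-KO morulae it was -0.81 with ERCC scaling and -1.78 to -0.92 without an embryo. From Gabpb1 cross morulae to blastocysts ERCC scaling reversed Ifitm2 (-0.45), Ifitm3 (-0.35) and Gm45717 (-0.40).

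Other estimates were unstable, for causes that were not tested, and values without an embryo are given as ranges. Ifitm1 in Alyref cross against WT blastocysts ran from -4.56 to -0.14, the latter without WT replicate 3, and between Alyref cross stages from -6.20 to -3.38. Ifitm1 in Alyref KO ran from -3.03 to 0.57, above 0 without KO replicate 1 (0.29) or non-KO replicate 2. Ifitm3 between Alyref cross stages ran from -0.61 to 0.37, above 0 without morula replicate 2 (0.0069) or blastocyst replicate 2. Ifitm1 in Gabpb1 cross against WT blastocysts was 0.18 with ERCC scaling, 0.054 with limma and 0.73 with the replicate block. It ran from -0.72 to 2.58, above 0 without Gabpb1 cross replicate 2 (0.32) or WT replicate 3, and Ifitm3 there from -0.63 to 0.41. Ifitm3 ran from -1.50 to 0.23 in Gabpb1 KO, from -0.75 to 0.90 between the crosses' morulae and from -0.12 to 1.53 from Gabpb1 cross morulae to blastocysts. ERCC scaling moved the median of all genes to -0.34 between Alyref cross stages, -0.41 in Gabpb1 KO, 0.43 between the crosses' morulae, -0.88 between Gabpb1 cross stages and 0.14 in Alyref cross against WT blastocysts. It called 17 genes higher and 231 lower between Alyref cross stages, and 0 higher and 25 lower in Gabpb1 KO.

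Correlations of same-numbered deviations ran from -0.15 to 0.18, so replicate numbers showed no clear pairing. With so few embryos in a group this check cannot exclude shared litters or fertilisations. With the replicate block Ifitm2 in Alyref KO was -2.84 (edgeR QL adjusted p = 0.0765).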
